A study of Homo sapiens with 8 samples.

Results

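The mRNAs of 8 genes of the eIF2 stress response were followed through inhibition of nonsense-mediated decay (NMD) and block of transcription in LNCaP and 22Rv1 cells, both established lines of human prostate cancer. The genes were ATF4, ATF5, DDIT3, ATF3, PPP1R15A, PPP1R15B, TRIB3 and CHAC1, taken by name as the transcription factors and feedback genes of that response. Every probe set that the annotation of the array assigns to one of them alone was used, which gave 15 probe sets for the 8 genes out of 54675 probe sets and 19775 genes. Where a gene has several, the one with the highest mean over the 8 arrays represents it.

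The study searched for mutant genes whose mRNAs are removed by NMD, the pathway that degrades mRNAs with premature stop codons. Total RNA was hybridized to Affymetrix Human Genome U133 Plus 2.0 arrays. LNCaP was derived from a lymph node metastasis of prostate cancer, and 22Rv1 from the CWR22 prostate cancer xenograft. Both lines were untreated, or kept for 4 h in 10 mM caffeine as an inhibitor of NMD. After that step and a wash, further caffeine-treated plates were kept for another 4 h in 2 μg/ml actinomycin D, a blocker of transcription, either together with 10 mM caffeine or alone. The actinomycin D arrays were thus made 4 h later than the others, with no untreated plate of that time. Each line has 1 array per treatment, from 1 plate, so a difference between 2 arrays of a line has no replicate check.

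Phosphorylation of the initiation factor eIF2 by stress kinases lowers general translation while the ATF4 mRNA, which carries upstream open reading frames, is translated better. ATF4 then activates genes for amino acid supply and redox balance together with DDIT3 and ATF3, and the PPP1R15A protein closes a feedback loop by bringing protein phosphatase 1 to eIF2. The mRNAs of several of these genes carry upstream reading frames and have been described as natural substrates of NMD, and caffeine inhibits the kinase SMG1 of that pathway along with related kinases such as ATM.

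Values are gcRMA signals on the log2 scale, and a difference of 1 is a 2-fold change. Accumulation is the signal in caffeine less that in untreated cells. Of the comparisons with actinomycin D, decay sets it alone against the caffeine array before it, loss with caffeine kept sets it together with caffeine against that same array, and degradation is its signal with caffeine less its signal without. These comparisons share arrays: accumulation, decay and loss use the same caffeine arrays, and degradation, decay and loss the actinomycin D arrays. A response common to the lines was tested with limma over 21453 probe sets with a mean signal of at least 4, the lines serving as the 2 replicates of each treatment, and p-values were adjusted over all of them. Standard errors (SE) given below come from that fit. Within 1 line no test was possible, and a difference of at least 1 was counted where an array of the pair had a signal of 4 or more. Of the 15 probe sets 12 were tested, for 7 of the 8 genes. The signals measure RNA of whole plates, so fewer cells with a transcript and less of it per cell cannot be told apart.

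All 8 luminal prostate markers with a probe set of their own, KLK3 and TMPRSS2 among them, had signals of at least 4 on every array, and all 5 leukocyte markers were below 4 on every array. Of 5 fibroblast markers COL1A2 and COL3A1 were below 4 on every array, while COL1A1 in both lines and DCN and LUM in 22Rv1 were at 4 or more on each array of the line. COL1A1 had an accumulation of 2.79 in 22Rv1 and -0.10 in LNCaP. The arrays have the same distribution of signals, with 20975 probe sets at 4 or more on each. The mean signal of the 3 probe sets for 18S rRNA was 11.71 for actinomycin D with caffeine in LNCaP and between 4.09 and 7.08 on the other 7 arrays. The 24 probe sets for poly-A control RNA gave higher signals after actinomycin D, with a mean decay of 1.53 (LNCaP) and 1.18 (22Rv1). Scaling the arrays on these probe sets moved the median decay of all tested probe sets from 0.05 to -1.304 and the median loss with caffeine kept from 0.02 to -0.93, so each fall given below is relative to the other transcripts.

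**Figure D1:**
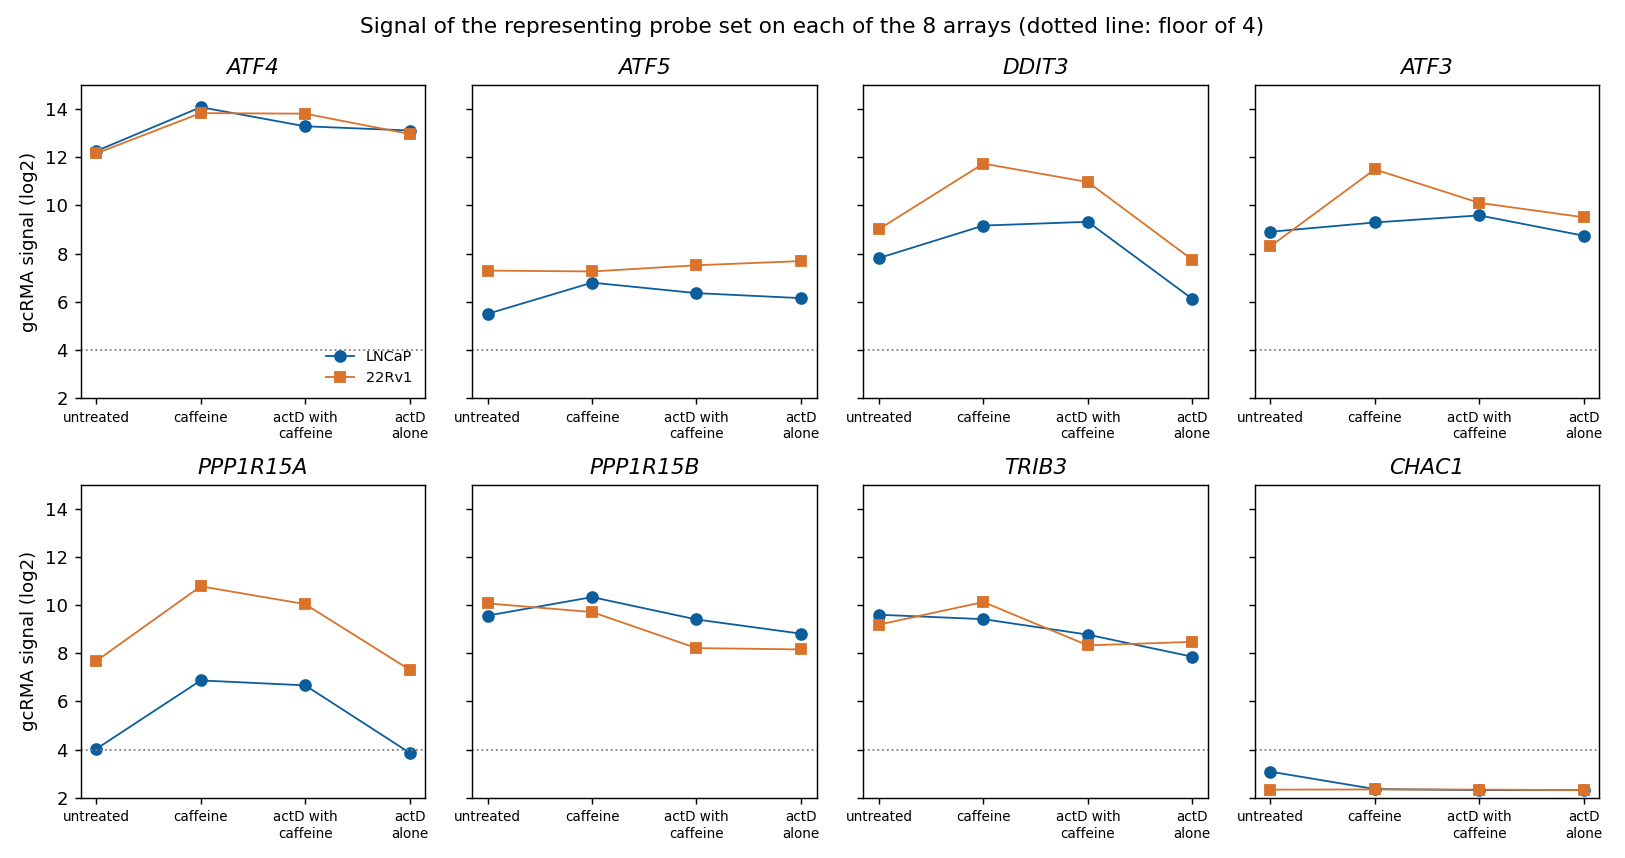
Signals (log2, vertical axis) of the representing probe set of each gene on the 4 arrays of LNCaP (blue circles) and of 22Rv1 (orange squares), in order of treatment, with the floor of 4 dotted. Each point is 1 array. DDIT3 and PPP1R15A were high on both arrays with caffeine in the medium and low on the untreated and actinomycin D alone arrays of each line, and CHAC1 lay below the floor on all 8.

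ATF4, the transcription factor at the head of the response, gave signals in LNCaP of 12.26 untreated, 14.08 in caffeine, 13.28 in actinomycin D with caffeine and 13.11 in actinomycin D alone. The corresponding values in 22Rv1 were 12.16, 13.83, 13.81 and 12.96. The untreated array was the lowest in both lines and the caffeine array the highest. Accumulation of ATF4 was 1.82 in LNCaP and 1.67 in 22Rv1, and limma estimated 1.75 over both lines (SE 0.25, a 3.35-fold difference), with an adjusted p of 0.0691. That missed the threshold of 0.05, while 3 of 9 alternative fits passed it, and the adjusted p ranged from 0.0286 to 0.752 over the 9. Relative to the other transcripts, ATF4 was above its untreated signal by 0.85 in LNCaP and 0.81 in 22Rv1 with actinomycin D alone and by 1.03 and 1.65 with caffeine kept. Scaled on the poly-A controls, a choice for this comparison made after seeing the data, the direction without caffeine turned, to -0.46 and -0.11, and the values with caffeine were 0.10 and 1.14. Its decay was estimated at -0.92 (SE 0.25, limma adjusted p = 0.122) and its degradation at 0.51 (SE 0.25, limma adjusted p = 0.709).

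ATF5, a related factor of the same bZIP family whose mRNA also carries upstream reading frames, did not follow ATF4 in both lines. In LNCaP its signal was 5.50 untreated, 6.79 in caffeine, 6.36 in actinomycin D with caffeine and 6.15 in actinomycin D alone. In 22Rv1 the signals were 7.29, 7.26, 7.51 and 7.69, a range of 0.43 over the 4 arrays. Accumulation was therefore 1.296 in LNCaP and -0.04 in 22Rv1, and the estimate over both lines was 0.63 (SE 0.34, limma adjusted p = 0.407). The other 3 probe sets of ATF5 lay between 3.11 and 4.68 on all arrays. Accumulation over both lines was 0.00 and -0.06 for the 2 of these that were tested, so the accumulation in LNCaP rests on the representing probe set.

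DDIT3 and PPP1R15A had the widest ranges over the 4 treatments of the 7 detected genes in both lines, at 3.20 and 3.003 in LNCaP and 3.99 and 3.46 in 22Rv1. DDIT3 encodes CHOP, a bZIP factor that promotes cell death under lasting stress. PPP1R15A encodes GADD34, the stress-induced subunit that directs protein phosphatase 1 to eIF2. The 180 bases of reference sequence (RefSeq, GRCh38.p14) that end just before the start of each gene are shown because the signals of these genes ran together over the arrays. Capitals mark matches to the cAMP response element TGACGTCA in PPP1R15A and to the CCAAT box in DDIT3, 1 on each strand. The first window is chr19:48872241-48872420 (plus strand) and the second chr12:57520515-57520694 (minus strand), both upstream of the transcript.
PPP1R15A: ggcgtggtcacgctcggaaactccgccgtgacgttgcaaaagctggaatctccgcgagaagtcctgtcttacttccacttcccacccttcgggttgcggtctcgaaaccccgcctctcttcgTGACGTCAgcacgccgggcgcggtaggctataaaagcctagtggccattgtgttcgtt
DDIT3: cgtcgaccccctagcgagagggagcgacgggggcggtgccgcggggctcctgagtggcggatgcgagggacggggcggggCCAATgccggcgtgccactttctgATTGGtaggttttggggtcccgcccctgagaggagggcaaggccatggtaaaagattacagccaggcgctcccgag
The element TGACGTCA begins 58 bases before the start of PPP1R15A and was found in 1.65% of 35116 promoters searched over the same 250 bases upstream. The letters CCAAT, on either strand, were found in 32.0% of them. These are matches of letters and not evidence of binding.

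The PPP1R15A probe set gave 4.03 in untreated LNCaP cells, 6.87 in caffeine, 6.67 in actinomycin D with caffeine and 3.87 in actinomycin D alone. In 22Rv1 the signals were 7.68, 10.78, 10.04 and 7.32. Each line thus had a pair of high arrays, those with caffeine in the medium, and a pair of low arrays. Accumulation was 2.84 in LNCaP and 3.10 in 22Rv1. In limma PPP1R15A rose by 2.97 (SE 0.22, a 7.84-fold difference, adjusted p = 0.0409). It was the single member called higher in accumulation, against 0.0277% of the 10842 genes tested. The call, like that of every other probe set, was lost when any of the 8 arrays was left out, with PPP1R15A estimates between 2.76 and 3.18. In the other 9 fits it was kept in 5, with adjusted p between 0.0136 and 1. The estimate of its second probe set was 2.88 (SE 0.33, limma adjusted p = 0.0644).

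With transcription blocked the signal of PPP1R15A was low without caffeine and high with it in both lines. Decay was -3.00 in LNCaP and -3.46 in 22Rv1, and limma estimated a fall of 9.40-fold (log2 -3.23, SE 0.22, adjusted p = 0.0257), with the second probe set at -3.50 (SE 0.33, adjusted p = 0.0263). The LNCaP signal in actinomycin D alone was under the floor, so the fall in that line was at least 7.32-fold when the floor is taken in its place. With caffeine kept the loss was -0.20 and -0.74, and the estimate was -0.47 (SE 0.22, 95% interval -1.01 to 0.07, limma adjusted p = 0.461). The direct comparison of the actinomycin D arrays gave a degradation of 2.80 and 2.72, the first being at least 6.36-fold with the floor in place of the lower signal. It was estimated at 2.76 (SE 0.22, limma adjusted p = 0.0875), which missed the threshold. Degradation of PPP1R15A passed in 4 of 9 alternative fits, with adjusted p from 0.0232 to 1. Its decay call was lost when any array other than an untreated one was left out, as was that of DDIT3 and of every other probe set, with adjusted p of up to 0.18 for both genes. In 22Rv1 the signal in actinomycin D alone differed from the untreated one by -0.36, and by -0.11 with the second probe set. In LNCaP the untreated signals, 4.03 and 4.01, lay at the floor and those in actinomycin D alone under it, so no such difference is given.

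DDIT3 was also high on the arrays with caffeine in the medium and low on the others in both lines. The LNCaP signals were 7.81 untreated, 9.16 in caffeine, 9.32 in actinomycin D with caffeine and 6.12 in actinomycin D alone, and those of 22Rv1 were 9.01, 11.73, 10.97 and 7.75. Accumulation was 1.35 in LNCaP and 2.72 in 22Rv1, with an estimate of 2.03 (SE 0.34, limma adjusted p = 0.0766). In decay DDIT3 fell by 3.52 on the log2 scale (SE 0.34, an 11.4-fold difference, limma adjusted p = 0.0264), from -3.04 in LNCaP and -3.99 in 22Rv1. It ended below its untreated signal, at -1.69 in LNCaP and -1.27 in 22Rv1. With caffeine kept it was at 0.16 and -0.76 relative to caffeine, and the degradation was 3.20 in LNCaP and 3.22 in 22Rv1. That degradation was estimated at 3.21 (SE 0.34, a 9.26-fold difference, limma adjusted p = 0.163), and 1 of 9 alternative fits passed, with adjusted p from 0.0232 to 1. The LNCaP degradation and loss with caffeine kept of both genes, as of all genes, rest on the array with the high 18S rRNA signal. In degradation the mean 18S rRNA signal itself differed by 5.45 in LNCaP and by 1.08 in 22Rv1. The part of 18S rRNA in the values of either line was not tested. With any array left out the estimate of degradation was between 3.12 and 3.30 for DDIT3 and between 2.61 and 2.91 for PPP1R15A.

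**Figure D2:**
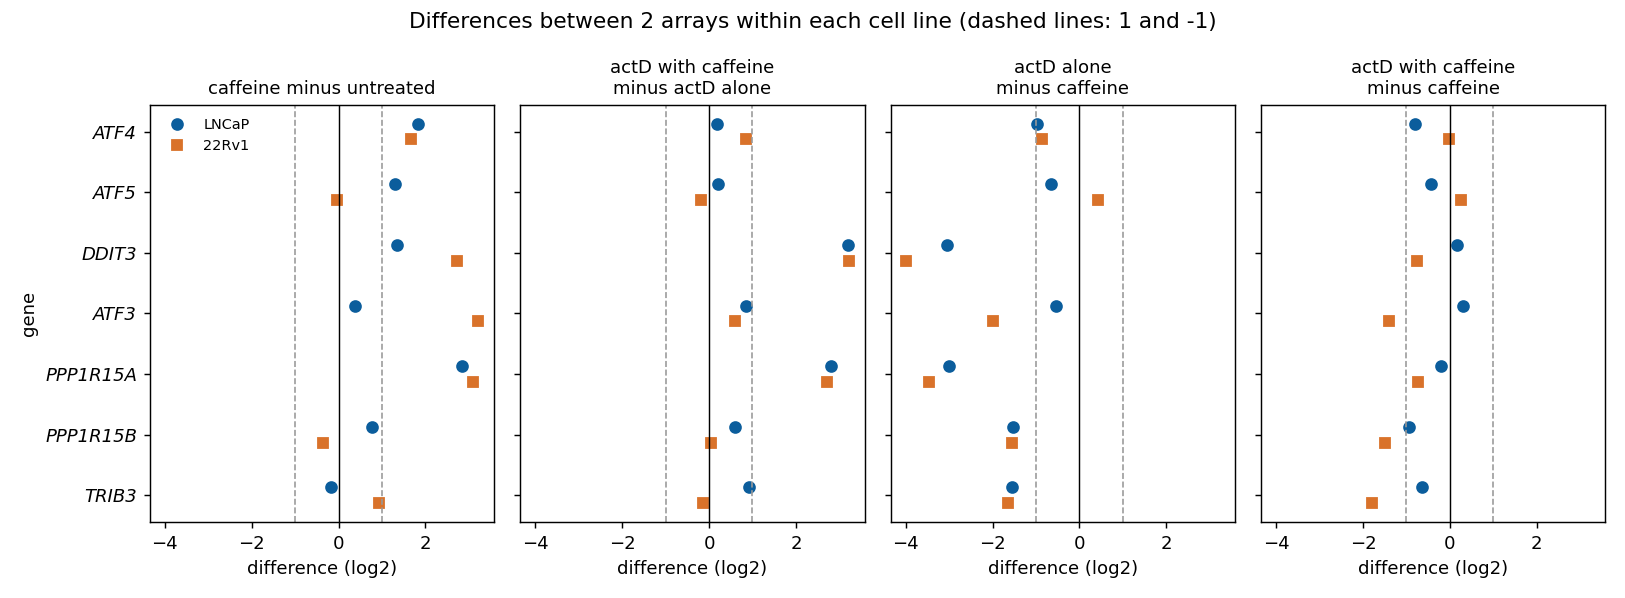
Difference (log2, horizontal axis) of each of the 7 detected genes within LNCaP (blue circles) and 22Rv1 (orange squares) in the 4 comparisons, each point being 1 array minus another and the dashed lines marking 1 and -1. In degradation DDIT3 and PPP1R15A lie between 2.72 and 3.22 in both lines and the other genes below 1.

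ATF3, a stress-induced bZIP factor that binds the cAMP response element, had its larger accumulation in 22Rv1. There its signal was 8.30 untreated, 11.49 in caffeine, 10.10 in actinomycin D with caffeine and 9.51 in actinomycin D alone. In LNCaP the signals were 8.90, 9.29, 9.58 and 8.74. Accumulation was 3.20 in 22Rv1 and 0.39 in LNCaP, and a second probe set gave 2.79 and 0.40. The test of this difference between lines is not available, since a fit with separate responses leaves no residual degrees of freedom, and the estimate over both lines was 1.79 (SE 0.61, limma adjusted p = 0.222). These 2 probe sets ordered the actinomycin D arrays of 22Rv1 differently: the representing one had a degradation of 0.60 and the other of -0.83. The remaining ATF3 probe set was below 4 on all arrays, with a highest signal of 2.59.

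PPP1R15B encodes CReP, the constitutive counterpart of GADD34, and its mRNA did not have the pattern of PPP1R15A. Its signals in LNCaP were 9.57 untreated, 10.33 in caffeine, 9.40 in actinomycin D with caffeine and 8.81 in actinomycin D alone, and in 22Rv1 10.07, 9.71, 8.21 and 8.16. Both actinomycin D arrays were below both other arrays in each line, whether or not caffeine was present. Accumulation was 0.77 in LNCaP and -0.36 in 22Rv1, with an estimate of 0.20 (SE 0.40, 95% interval -0.78 to 1.19, limma adjusted p = 0.855). Decay was estimated at -1.53 (SE 0.40, limma adjusted p = 0.111) and loss with caffeine kept at -1.21 (SE 0.40, limma adjusted p = 0.332). The degradation of 0.32 (SE 0.40, limma adjusted p = 0.914) had a 95% interval of -0.67 to 1.31, while the interval for PPP1R15A was 2.22 to 3.30.

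TRIB3, a pseudokinase that is induced by ATF4 and CHOP and restrains them, also had its lowest signals after actinomycin D. Its signals were 9.60 untreated, 9.42 in caffeine, 8.77 in actinomycin D with caffeine and 7.86 in actinomycin D alone in LNCaP. In 22Rv1 they were 9.19, 10.13, 8.33 and 8.47. Accumulation was -0.18 in LNCaP and 0.94 in 22Rv1, and -0.15 and 0.17 with the second probe set. Decay was -1.56 and -1.65, estimated at -1.61 (SE 0.37, limma adjusted p = 0.0852), and loss with caffeine kept was -0.64 and -1.80, estimated at -1.22 (SE 0.37, limma adjusted p = 0.302). Its second probe set gave -1.28 for decay and -1.23 for loss with caffeine kept. Neither probe set nor the one for PPP1R15B passed the threshold in any of the 4 treatment comparisons.

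CHAC1, an enzyme that breaks down glutathione and a target of ATF4, had signals of 2.32 to 3.09 in LNCaP and 2.32 to 2.35 in 22Rv1. All 8 values are below the floor, so no level or difference is given for it. Windows of 60 bases from PPP1R15B and CHAC1 are shown because both hold, in capitals, the composite site TGATGCAA (TTGCATCA on the other strand) to which ATF4 binds with a C/EBP partner. They are chr1:204411998-204412057 (minus strand) and chr15:40953231-40953290 (plus strand) of GRCh38.p14, from the RefSeq promoter table.
PPP1R15B: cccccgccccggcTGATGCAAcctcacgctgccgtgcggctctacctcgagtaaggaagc
CHAC1: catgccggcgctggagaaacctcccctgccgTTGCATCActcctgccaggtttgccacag
The match begins 227 bases before the start in PPP1R15B and 209 in CHAC1, and 0.772% of all promoters in the table hold one within 250 bases upstream. None of the 3 motifs searched was found in the promoters of ATF4, ATF5 or TRIB3. These letters are not in those windows, which says nothing of the factors.

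**Figure D3:**
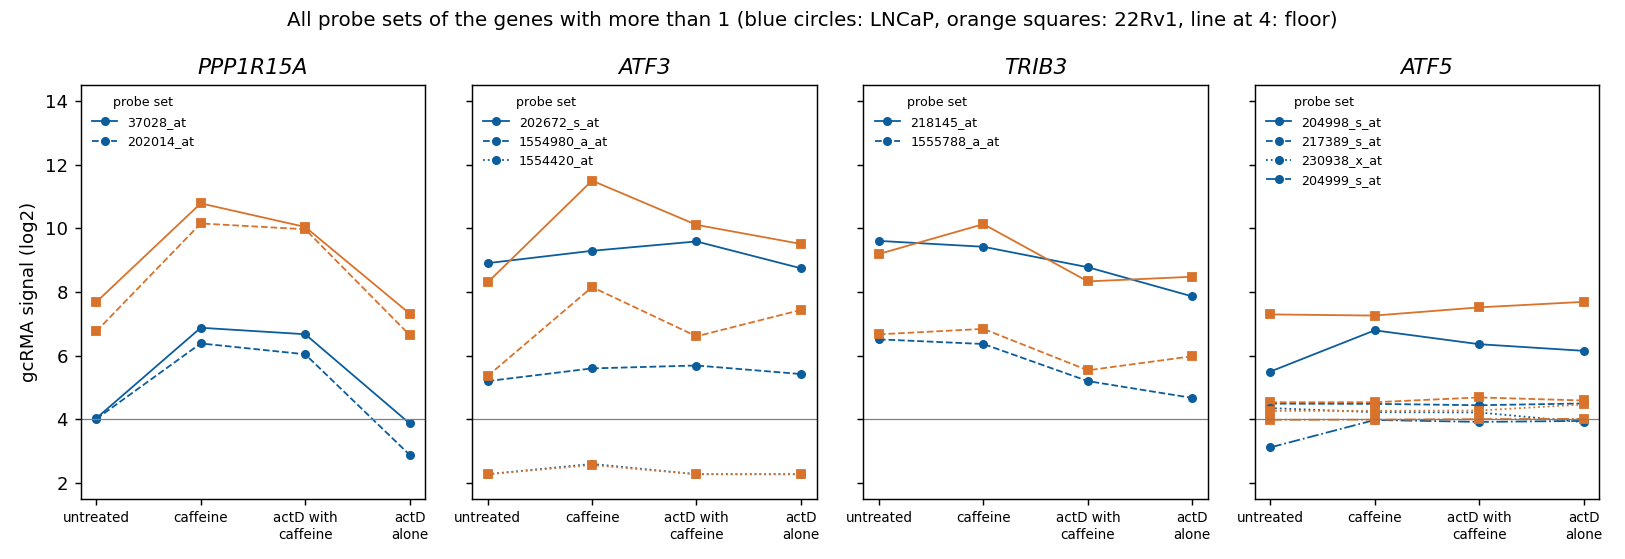
Signals (log2, vertical axis) of all probe sets of the 4 genes with more than 1, by treatment, in LNCaP (blue circles) and 22Rv1 (orange squares), with line styles marking the probe set and the horizontal line at 4 the floor. The 2 probe sets of PPP1R15A run in parallel, and the 2 ATF3 probe sets above the floor differ in 22Rv1 in actinomycin D alone, at 9.51 and 7.43.

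Counted by line, accumulation of at least 1 was found for ATF4, ATF5, DDIT3 and PPP1R15A in LNCaP, where 5.19% of detected genes were higher by that much, and for ATF4, DDIT3, ATF3 and PPP1R15A in 22Rv1, where 8.41% were. Degradation of at least 1 was found for DDIT3 and PPP1R15A in both lines, against 5.32% of genes in LNCaP and 3.16% in 22Rv1. Decay of -1 or lower was found for DDIT3, PPP1R15A, PPP1R15B and TRIB3 in both lines and for ATF3 in 22Rv1, against 11.9% of genes in LNCaP and 10.5% in 22Rv1. The second probe sets of ATF3 and TRIB3 did not reach it in 22Rv1, at -0.72 and -0.86. With caffeine kept 0 of the 7 genes were lower by 1 in LNCaP by their representing probe sets, where 8.54% of genes were. The second probe set of TRIB3 did pass there, at -1.17. In 22Rv1 the genes lower by 1 were ATF3, PPP1R15B and TRIB3, against 7.14% of genes.

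In limma the 7 tested genes had a median accumulation of 1.75 beside -0.02 over all genes, and a median decay of -1.53 beside -0.02. DDIT3 and PPP1R15A were called lower in decay, against 2.41% of genes. Scaled on the poly-A controls all 7 were, and so was most of the array, with 17490 of 21453 probe sets called lower. For degradation limma called 0 of the 7 genes and 0.0% of all genes higher. Its unadjusted p was under 0.05 for DDIT3 and PPP1R15A, and for 582 of all 10842 genes in that direction. For loss with caffeine kept limma called 0 of the 7 and 0.0% of all genes lower. Here the unadjusted p was under 0.05 for PPP1R15B and TRIB3, and for 845 of all 10842 genes in that direction. With poly-A scaling limma called 5 of the 7 lower in this loss, among them PPP1R15A at -1.42 and DDIT3 at -1.26, beside 11137 of all probe sets.

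**Figure D4:**
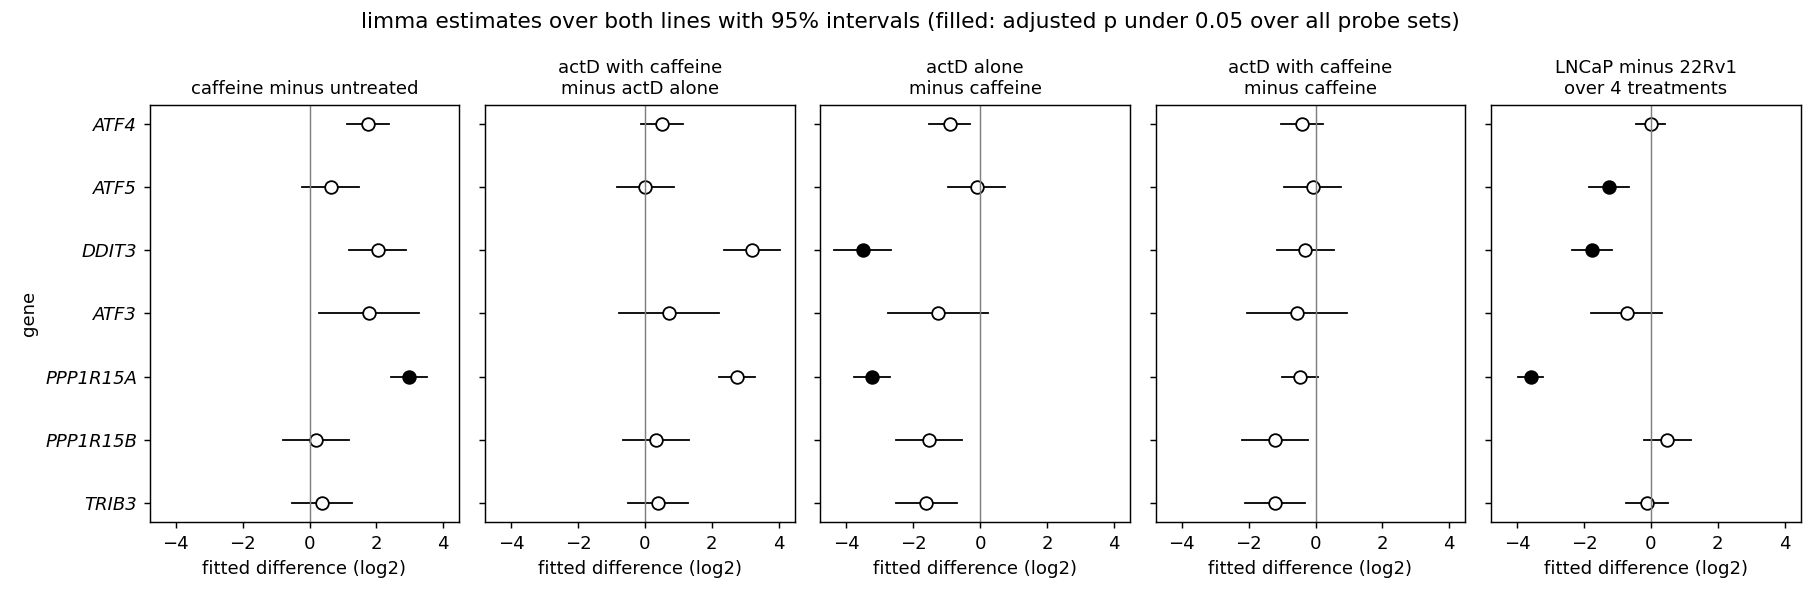
limma estimates (log2, horizontal axis) over both lines for the 7 tested genes, with 95% intervals as bars and filled circles for an adjusted p under 0.05. The 3 treatment estimates called are PPP1R15A in accumulation and DDIT3 and PPP1R15A in decay, and the panel on the right holds the 3 genes that differed between the lines.

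The lines differed in the level of 3 members over the 4 treatments, all lower in LNCaP, where 26.8% of genes were called lower. The summed signal of the 5 fibroblast markers also differed, from 15.47 to 19.57 over the LNCaP arrays and from 27.19 to 30.08 over those of 22Rv1, and its part in these differences was not tested. For the line difference the 4 treatments were the only repeats, with 1 plate each per line. Its SE and p-values thus measure the spread over treatments and not between replicate cultures, also where an array was left out. PPP1R15A was lower in LNCaP than in 22Rv1 on each treatment, with differences of -3.65 untreated, -3.91 in caffeine, -3.37 in actinomycin D with caffeine and -3.45 in actinomycin D alone. The LNCaP signal lay at the floor untreated (4.03) and under it in actinomycin D alone (3.87), so the sizes of these differences and of the estimate are uncertain. The highest LNCaP signal of PPP1R15A, 6.87, was below its lowest 22Rv1 signal, 7.32. The estimate was -3.59 (SE 0.16, a 12.1-fold difference, limma adjusted p = 3.2e-05), and -3.55 (adjusted p = 0.000136) with the second probe set. DDIT3 was also lower in LNCaP on each treatment, with differences of -1.20 to -2.57 and an estimate of -1.76 (SE 0.24, limma adjusted p = 0.00193), although the ranges of the lines overlap across treatments. ATF5 was estimated at -1.24 (SE 0.24, limma adjusted p = 0.00731), but its other probe sets gave -0.11 and -0.14 and were not called. All 3 calls held when any array was left out, although ATF5 lost its call when probe sets of all levels were tested (limma adjusted p = 0.0816) and DDIT3 in the fit without treatment (limma adjusted p = 0.184). For ATF4 the difference was -0.01 (SE 0.18, 95% interval -0.45 to 0.43), and 0.44 after scaling on the poly-A controls. PPP1R15B and TRIB3 were not called, at 0.49 (limma adjusted p = 0.194, 0.0231 without either untreated array, at 0.82, and 0.0143 with poly-A scaling, at 0.94) and -0.12 (limma adjusted p = 0.724), and neither was ATF3 at -0.72 (limma adjusted p = 0.205), though its second probe set was lower in LNCaP by limma (log2 -1.41, adjusted p = 0.0283).

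Likeness of pattern was measured as Pearson's r over the 8 arrays after the mean of each line was subtracted, as a description of points that share arrays and treatments. Among the 7 detected members the highest r was 0.94, between DDIT3 and PPP1R15A. PPP1R15B and TRIB3 had an r of 0.79, while r between PPP1R15A and PPP1R15B was 0.30. ATF4 had its highest r, 0.82, with PPP1R15A and an r of 0.03 with TRIB3. Of the 14305 probe sets compared with it, the most like PPP1R15A were SMG9, MCL1 and CIRBP, at r of 0.993, 0.988 and 0.987. SMG9 encodes a subunit of the NMD kinase complex and MCL1 a short-lived inhibitor of apoptosis. Most like DDIT3 were ATP5F1C, IFRD1 and COX17, at 0.988, 0.986 and 0.984. IFRD1 had an accumulation of 1.41 in LNCaP and 2.66 in 22Rv1 and had a degradation of 2.44 and 3.30. For ATF4 the 3 were BOD1L1, CKAP2 and TBC1D12, for ATF3 DDX19B, MAFF and LETM2, and for ATF5 FUBP1, REXO2 and PBXIP1. For PPP1R15B they were FBXL14, OVOL2 and MIEF1, and for TRIB3 FRAT2, ELF2 and PLEKHG3.

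Lists of the other genes of the pathway were tested in the same fit. Of the 7 genes for eIF2 kinases and their regulators, 0 were called in the 4 treatment comparisons, and the median accumulation was -0.20 beside -0.02 over all genes. EIF2AK3, the kinase PERK of the endoplasmic reticulum, had a decay of -1.08 in LNCaP and -2.10 in 22Rv1 (limma adjusted p = 0.145). EIF2AK4, the amino acid sensor GCN2, had an accumulation of -1.03 and -1.77 with its representing probe set (limma adjusted p = 0.192), and an estimate of 2.70 with another (limma adjusted p = 0.0691). The 8 subunits of eIF2 and its exchange factor eIF2B gave 0 calls in the treatment comparisons and no gene past 1 in both lines, with a median accumulation of 0.13. The 3 catalytic subunits of protein phosphatase 1, the partners of PPP1R15A and PPP1R15B, also gave 0 calls in those comparisons. Between the lines 5 of the 8 subunits of eIF2 and eIF2B were called, 4 higher in LNCaP and 1 lower. Of the catalytic subunits 1 was higher and 1 lower. Over all genes 28.5% were called higher in LNCaP and 26.8% lower.

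Among 10 bZIP partners of ATF4 and CHOP, CEBPB and CEBPG were called lower in decay, where 2.41% of all genes were. CEBPG, a C/EBP family factor that pairs with ATF4, had an accumulation of 1.53 in LNCaP and 1.38 in 22Rv1, the single partner past 1 in both (estimate 1.45, SE 0.20, limma adjusted p = 0.0691). A second probe set of CEBPG had an accumulation estimate of 0.94 (limma adjusted p = 0.268). In decay CEBPG fell by 1.25 on the log2 scale (limma adjusted p = 0.0444), with the second probe set at -0.91 (limma adjusted p = 0.224). CEBPB fell by 1.66 (limma adjusted p = 0.0309), and its loss with caffeine kept was -1.28 and -1.70. JUNB had a decay of -2.12 and -2.54 (limma adjusted p = 0.0531), and CEBPD a degradation of 1.67 and 1.63 (limma adjusted p = 0.613).

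Targets of ATF4 and CHOP had differences in both directions. Of the 17 tested out of 18 listed, 4 were called lower in decay, against the same 2.41% of genes, and 0 in the other treatment comparisons, with a median accumulation of 0.30 and a median decay of -0.53. SESN2, a stress-induced inhibitor of mTORC1 signalling, had an accumulation of 1.19 and 1.73 and in decay it fell by 3.49 (limma adjusted p = 0.0264). A second probe set of SESN2 gave estimates of 0.14 for accumulation and -0.26 for decay. DDIT4, another inhibitor of mTORC1, had the opposite sign in accumulation, at -1.53 in LNCaP and -3.97 in 22Rv1 (limma adjusted p = 0.133), and in decay it fell by 4.48 (limma adjusted p = 0.0371). BCL2L11, the pro-apoptotic BIM, fell by 3.13 in decay (limma adjusted p = 0.0263). GADD45A, a growth arrest gene, fell by 1.56 (limma adjusted p = 0.0369). Degradation was past 1 in both lines for BCL2L11 (1.45 and 2.21), GADD45A (1.78 and 1.31) and SESN2 (2.25 and 1.14). The SESN2 signals in actinomycin D alone were under the floor of 4, at 3.99 in LNCaP and 3.41 in 22Rv1. The sizes of its decay and degradation are thus uncertain. In 22Rv1 its signal with caffeine, 4.55, was less than 1 above the floor, so with the floor its degradation there is not past 1. The other probe sets of BCL2L11 gave decays between -1.02 and -0.47 and degradations between 0.29 and 0.47. The second probe set of SESN2 had a degradation of 0.60. Loss with caffeine kept was past -1 in both lines for DDIT4 (-4.63 and -2.65), BCL2L11 (-1.48 and -1.13) and SESN2 (-1.09 and -2.50). The other probe sets of BCL2L11 had estimates of this loss between -0.70 and -0.10, and the second one of SESN2 had 0.34, the opposite sign. Of the 14 detected genes of the ATF6 and XBP1 branches, which serve protein folding in the endoplasmic reticulum, 0 were called in a treatment comparison and 0 were past 1 in both lines, with a median accumulation of -0.12.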

How the data were processed

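The authors deposited log2 signals computed with gcRMA, which corrects background from probe sequence, gives all 8 arrays one distribution by quantile normalization and combines the probes of a probe set. In the submitters' processing notes RMA and GCRMA are named, with no version. All 8 arrays were used as deposited, and samples were grouped by cell line and treatment from their titles. Genes came from the platform annotation: 41097 probe sets have 1 symbol, 1801 several and 11777 none, and genes were named from the first class alone, while the fit held all classes. Signals have no counts behind them, so the number of arrays limits the precision.

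limma 3.58.1 (R 4.3.3) was fitted with cell line and treatment as additive terms to all probe sets whose mean reached 4, with Benjamini-Hochberg adjustment over all 21453, 3 degrees of freedom left for the residuals and 2.93 from the prior. A run on simulated data covered accumulation alone and had no difference between the lines, so it says nothing of lines that respond differently. Background shares count genes by their representing probe set. The members and gene lists were chosen with earlier results of these data known. All members are named. Of the lists, genes called by limma or past 1 in the same direction in both lines are named, at most 4 a list and treatment comparison, and for each member the 3 genes with the highest r among probe sets with a range of at least 1. List genes that share their probe sets, or have none listed, were not analysed here. The alternatives tried were fits without the line term, with a variance trend, robust variances, other filters, only the arrays compared, poly-A scaling, a floor of 4, gene means, other probe sets and single arrays left out. Tables and figures used python 3.11.15, pandas 2.3.3, numpy 2.4.6 and matplotlib 3.10.9.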

Additional observations from a re-analysis of the deposited data

Results flagged for a closer look

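Several genes had differences of opposite sign in LNCaP and 22Rv1 under the same comparison. These gaps between LNCaP and 22Rv1 were not tested, because each line has 1 array per treatment. Accumulation of ATF5 was 1.296 in LNCaP and -0.04 in 22Rv1, a gap of 1.33. That of PPP1R15B was 0.77 and -0.36, a gap of 1.13, and that of TRIB3 was -0.18 and 0.94, a gap of -1.12. With the second TRIB3 probe set it was -0.15 and 0.17, a smaller gap. Degradation of TRIB3 was 0.92 and -0.15, a gap of 1.06, and that of ATF5 was 0.21 and -0.17, a gap of 0.38. Decay of ATF5 was -0.64 and 0.43, a gap of -1.07. Loss with caffeine kept was 0.29 in LNCaP and -1.39 in 22Rv1 for ATF3, a gap of 1.68. For DDIT3 it was 0.16 and -0.76, a gap of 0.92, and for ATF5 -0.44 and 0.26, a gap of -0.69.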

How the results depend on the processing

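With 1 array per line and treatment, the replicate number carries no pairing, and the cell line was the block of the main design. Among the 7 tested genes limma called 1 in accumulation, 0 in degradation, 2 in decay, 0 in loss with caffeine kept and 3 between the lines. In accumulation the count was 0 without the cell line block, with no filter, with only the arrays compared and with signals under 4 set to 4, 2 with a variance trend, with poly-A scaling and with gene means, and 3 with a mean of at least 6. For degradation it was 1 with a variance trend, with a mean of at least 6 and with gene means, and 2 with poly-A scaling. For decay it was 0 without the block, with no filter and with only the arrays compared, and 7 with poly-A scaling, which lowers nearly all transcripts of the actinomycin D arrays by construction. The same scaling gave 5 for loss with caffeine kept. Left out 1 at a time, the arrays gave 0 calls in accumulation throughout. In decay they gave 2 calls without either untreated array and 0 without any other. Between the lines they gave 3 or 4, and the other alternatives 2 to 4.

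Counted within a line, degradation past 0.5 held 5 genes in LNCaP and 4 in 22Rv1, and with poly-A scaling 4 in each. Decay past 0.5 and decay with poly-A scaling each held 7 in LNCaP. Loss with caffeine kept held 3 in LNCaP and 5 in 22Rv1 past 0.5, and 5 in each line with poly-A scaling. The shares of all genes under these settings were not counted, so the counts are not results about the members. Without scaling, the lower quartile of decay over detected genes in LNCaP was -0.55, already past 0.5. The upper quartile of degradation was 0.40 in LNCaP and 0.22 in 22Rv1, and the lower quartile of loss with caffeine kept -0.41 and -0.29.

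Of 613 values for single genes under an alternative, 530 kept direction and side of the threshold, 35 lost the call, 24 gained it and 24 changed sign, each of the last from an estimate that was not called. Other ATF5 probe sets had an accumulation of -0.0034 and -0.0634, a decay of 0.034 and a loss with caffeine kept of 0.0539 and 0.0001, and another ATF3 probe set a degradation of -0.28. Poly-A scaling turned the line difference of ATF4 to 0.44 and of TRIB3 to 0.33. With single arrays left out, accumulation ran from -0.46 to 0.87 for PPP1R15B and from -0.0188 to 0.77 for TRIB3, and degradation from -0.18 to 0.22 for ATF5 and from -0.14 to 0.79 for PPP1R15B. Decay of ATF5 ran from -0.62 to 0.41. Loss with caffeine kept ran from -0.61 to 0.43 for ATF5, from -0.84 to 0.24 for DDIT3 and from -1.54 to 0.44 for ATF3. The line difference ran from -0.0939 to 0.16 for ATF4 and from -0.31 to 0.0799 for TRIB3. Except where the construction shows it, the cause of a change was not tested.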
